A study of Mus musculus with 28 samples.

Results

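The genes described here are the major urinary protein (Mup) genes, measured in mouse liver by 5 of the 35556 probe sets of a whole-transcript array, or 5 of the 18820 genes with a probe set of their own. A probe set is a group of array probes summarised to 1 value, and it was taken as a member where its annotated symbol was Mup followed by a digit. The 5 members name Mup3 (probe set 10513529), Mup5 (10513514), Mup6 (10608668), Mup20 (10513521) and Mup21 (10513538), each for 1 gene only, and 0 probe sets were shared between several Mup genes. RefSeq lists 22 protein-coding Mup genes in the mouse, all of them on chromosome 4, and expression of the other 17 was not analysed here.

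Major urinary proteins are small lipocalins, barrel-shaped carriers of fatty and volatile molecules, which hepatocytes secrete into blood and which pass into urine. There they hold and slowly release pheromones, and some act as scent signals themselves. Male mouse liver makes far more of them than female liver, because the pulses of growth hormone in males act through STAT5b on their genes, with a further contribution from androgens and thyroid hormone. The genes are closely alike in sequence, so a probe set named for 1 of them may also bind transcripts of its relatives. Which relatives each probe set binds was not tested, and each value below is that of a probe set.

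The livers came from 28 male C57BL/6J mice, 1 array for each mouse. All 28 were on an intermittent diet when sampled, made of alternate weeks. In the first week of each cycle moderate-fat food, with 25% of energy as fat, was eaten freely, and in the next the ration was 60% of what control mice ate, by energy. Mice of the switched group (n = 8) ate only the moderate-fat food, freely, from 9 weeks of age, began the weekly cycle at 12 months and were killed at 24 months. The lifelong groups followed the cycle from 9 weeks of age. Of these, 6 mice were killed at 6 months, 7 at 12 months and 7 at 24 months. Every mouse was housed alone, fasted for 4 hours, given carboxymethyl cellulose by stomach tube and fasted for another 6 hours. The labels do not state in which week of the cycle a mouse was killed. The groups used here include no mice on a steady diet and no females, so a difference with age is a difference with age under this diet.

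The promoters of 3 members are shown, because no promoter sequence of Mup5 or Mup20 was available. Whether promoter likeness goes with likeness in expression was not tested. Over the 28 livers, the probe sets of Mup21 and Mup3 varied together more closely than either did with Mup6. That order did not hold in every group, as given below. Sequences are those of RefSeq on build GRCm38.p6, from 250 bases before to 50 bases after the annotated start, 5′ to 3′ on the strand of the gene. They lie at chr4:62150792-62151091 on the minus strand (Mup21), chr4:62087268-62087567 on the minus strand (Mup3) and chr4:60003231-60003530 on the plus strand (Mup6). Capitals mark the longest run that all 3 promoters share.
Mup21: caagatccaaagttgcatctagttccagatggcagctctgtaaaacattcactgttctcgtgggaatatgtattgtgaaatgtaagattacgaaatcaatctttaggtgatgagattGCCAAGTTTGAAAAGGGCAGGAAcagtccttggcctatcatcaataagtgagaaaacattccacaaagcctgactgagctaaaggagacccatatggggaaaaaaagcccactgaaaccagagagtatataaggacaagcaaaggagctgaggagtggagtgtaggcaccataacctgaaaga
Mup3: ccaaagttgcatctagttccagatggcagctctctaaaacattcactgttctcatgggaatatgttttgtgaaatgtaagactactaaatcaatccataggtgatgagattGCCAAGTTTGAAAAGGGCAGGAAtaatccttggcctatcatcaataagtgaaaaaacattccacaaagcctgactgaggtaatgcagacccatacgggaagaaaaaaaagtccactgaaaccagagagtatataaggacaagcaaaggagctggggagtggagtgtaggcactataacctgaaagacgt
Mup6: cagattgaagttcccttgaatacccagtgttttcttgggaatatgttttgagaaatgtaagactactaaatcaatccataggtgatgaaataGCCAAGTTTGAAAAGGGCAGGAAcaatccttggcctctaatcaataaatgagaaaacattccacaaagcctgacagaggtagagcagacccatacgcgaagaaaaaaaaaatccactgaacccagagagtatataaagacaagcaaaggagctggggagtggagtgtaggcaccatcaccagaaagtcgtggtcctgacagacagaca

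The shared run, GCCAAGTTTGAAAAGGGCAGGAA, is 23 bases long and begins 133 bases before the start of Mup21, 139 before that of Mup3 and 158 before that of Mup6. In pairwise alignments, 92.9% of 297 aligned positions were identical between Mup21 and Mup3, 88.7% between Mup3 and Mup6 and 84.5% between Mup21 and Mup6. Motifs were searched on both strands. The STAT motif TTCNNNGAA was in 0 of 14 Mup promoters, those of all Mup genes with a sequence in the table, members or not, and in 8.30% of 32851 mouse promoters of the same length. TATAAA was in 2 of the 14, Mup6 among them, and in 13.6% of all promoters. The 2 motifs do not overlap in their letters. The Mup promoters are alike in sequence, so the 14 are not independent cases to set beside the share of all promoters. These windows are short, and a motif outside them would not have been seen.

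Values are log2 expression values, so a difference of 1 is a doubling. Array medians lay between 5.23 and 5.31, and the highest value of any array lay between 14.04 and 14.26. Mup20 and Mup3 were near that upper end in every liver, where an array can understate differences; whether it did so here was not tested. Array names begin with G150, G151 or G152. What the prefix stands for is not stated; it is called a batch here. G150 holds 4 to 6 livers of each group, and G151 and G152 hold 1 or 2 of each. Differences were fitted in limma over all probe sets with batch as a term, and a call is an adjusted p (Benjamini-Hochberg) under 0.05. SE is the standard error of a fitted difference.

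Over all 28 livers Mup21 had the widest spread of the 5 members (SD 0.75), though within the switched group Mup6 spread more (SD 0.61, against 0.39 for Mup21). In switched livers its values ran between 7.09 and 8.41 on the log2 scale, with a median of 7.67. In lifelong livers they ran between 9.09 and 9.64 at 6 months (median 9.37), between 8.85 and 9.55 at 12 months (median 9.03) and between 8.10 and 9.41 at 24 months (median 8.45). Every switched liver thus lay below every lifelong liver of 6 and of 12 months, which holds for 1.28% and 0.357% of all probe sets, and 1 switched liver reached into the range of lifelong livers of its own age. Neighbouring lifelong ages overlapped.

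**Figure D1:**
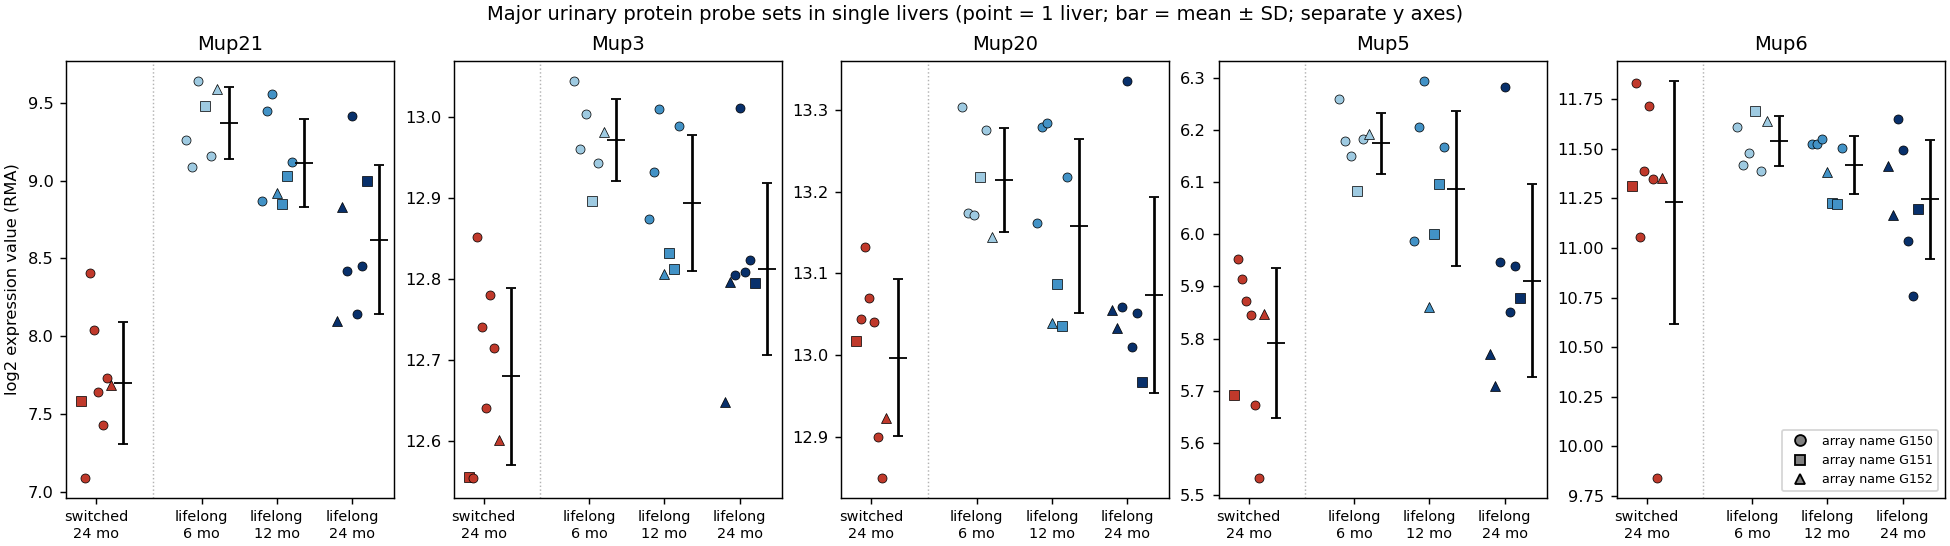
Log2 values of the 5 Mup probe sets in each of 28 livers, with the mean ± SD of each group, and with a separate vertical axis for each gene. Point shape gives the array batch. Mup21 covers 7.09 to 9.64 over all livers, and in the Mup6 panel 1 switched liver lies alone at 9.84.

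Mup3, which encodes another secreted family member, was bright and varied little. It read 12.55 to 12.85 in switched livers (median 12.68). In lifelong livers it read 12.90 to 13.04 at 6 months (median 12.97), 12.81 to 13.01 at 12 months (median 12.87) and 12.65 to 13.01 at 24 months (median 12.81). As with Mup21, the switched livers were all below the livers of 6 months, but their range overlapped those of 12 and 24 months.

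Mup20, known as darcin, a male pheromone protein that attracts females and prompts them to learn the scent of its owner, was the brightest member. Its switched livers read 12.85 to 13.13 (median 13.03). Lifelong livers read 13.14 to 13.30 at 6 months (median 13.20), 13.03 to 13.28 at 12 months (median 13.16) and 12.97 to 13.34 at 24 months (median 13.05). The switched livers again lay below every liver of 6 months, by a gap smaller than the range within either group.

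Mup5, a member also known from salivary and lacrimal glands, was the dimmest member and lay closer to the array median. It read 5.53 to 5.95 in switched livers (median 5.85). In lifelong livers it read 6.08 to 6.26 at 6 months (median 6.18), 5.86 to 6.29 at 12 months (median 6.10) and 5.71 to 6.28 at 24 months (median 5.88). The 6-month range was the narrowest, and no switched liver reached it.

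Mup6 behaved differently from the rest. Its switched livers read 9.84 to 11.83 (median 11.35). Lifelong livers read 11.39 to 11.69 at 6 months (median 11.54), 11.22 to 11.55 at 12 months (median 11.51) and 10.76 to 11.65 at 24 months (median 11.20). The switched group held both the lowest and the highest Mup6 value of the 28 livers, and every pair of groups overlapped.

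With age under the lifelong diet, Mup21 fell by 24 months. It averaged 8.62 ± 0.48 (SD, n = 7) at 24 months and 9.37 ± 0.23 (SD, n = 6) at 6 months, a fitted log2 difference of -0.74 (SE 0.20, limma adjusted p 0.0342) or a 1.67-fold lower value. Of the 7 old livers, 6 lay below the lowest liver of 6 months, and replicate 4 lay within the young range at 9.41. Mup21 was the only member of the 5 that passed, while 4.73% of all probe sets passed in either direction and 2.63% passed as lower.

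The other 4 members also had differences below 0 between 24 and 6 months and did not pass. Mup5 averaged 5.91 ± 0.18 at 24 months and 6.17 ± 0.06 at 6 months, a difference of -0.25 (SE 0.08, limma adjusted p 0.0596). Mup3 differed by -0.15 (SE 0.05, limma adjusted p 0.0850), Mup20 by -0.13 (SE 0.06, limma adjusted p 0.189) and Mup6 by -0.30 (SE 0.21, limma adjusted p 0.466). In Mup3, Mup5 and Mup20 as in Mup21, 6 of the 7 old livers lay below all young ones, and replicate 4 was the exception each time. These are the same livers in each member, and the share of all probe sets with such a split was not counted. The median over the 5 members was -0.25, beside -0.02 over all probe sets, of which 54.4% had a difference below 0. At an unadjusted p under 0.05, 4 of the 5 members and 11.2% of all probe sets were lower.

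The call on Mup21 depended on single livers. Leaving out 1 liver at a time gave differences of -0.88 to -0.65, and Mup21 passed in 6 of the 13 fits (limma adjusted p 0.0109 to 0.114). It missed the threshold without 6-month replicates 3, 4 or 6 and without 24-month replicates 1, 3, 5 or 6. Without 24-month replicate 4, Mup21, Mup5 and Mup3 all passed. Within batches, the difference of Mup21 between 24 and 6 months was -0.68 in G150 (4 livers each), -0.48 in G151 (1 each) and -1.12 in G152 (2 and 1).

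**Figure D2:**
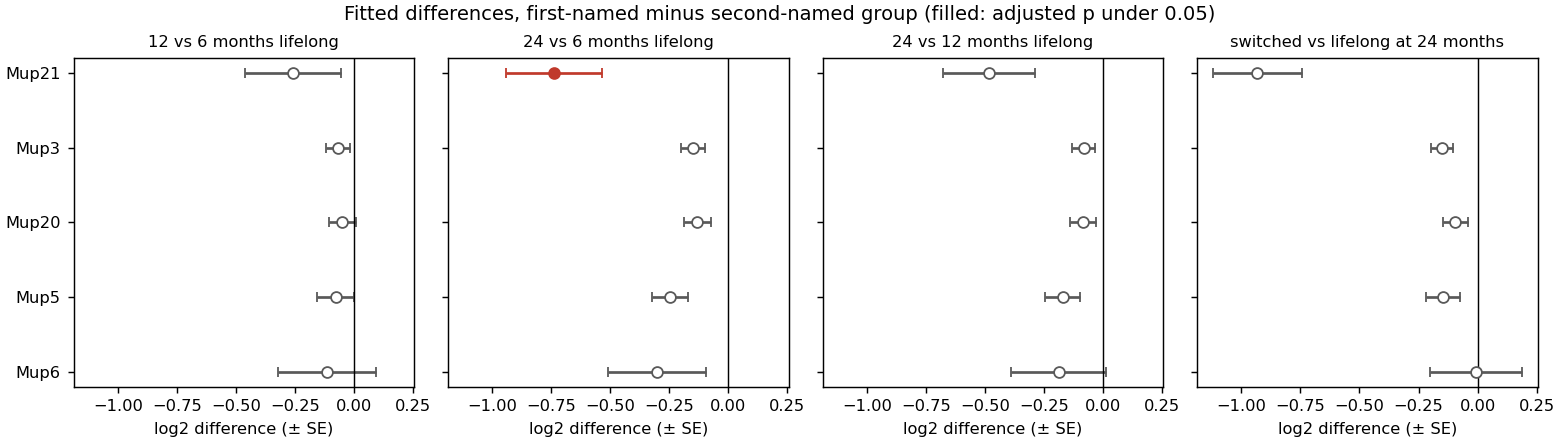
Fitted log2 differences of the 5 Mup probe sets in the 4 comparisons, first-named minus second-named group, with bars of 1 SE. All points lie at or left of 0, and the filled point, Mup21 at 24 against 6 months (-0.74), is the one with an adjusted p under 0.05.

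Between 12 and 6 months, 0 of the 5 members passed in limma, and 0 had an unadjusted p under 0.05. Of all probe sets, 0.591% passed, 6.45% were lower at an unadjusted p under 0.05, and 49.6% had a difference below 0, as all 5 members did. Mup21 averaged 9.11 ± 0.28 (SD, n = 7) at 12 months and 9.37 ± 0.23 at 6 months, a difference of -0.26 (SE 0.20, limma adjusted p 0.646). The others differed by -0.11 (Mup6), -0.08 (Mup5), -0.07 (Mup3) and -0.05 (Mup20). Their median was -0.08, beside 0.00 over all probe sets. Within batches, Mup21 differed by -0.04 in G150 (4 livers each), -0.54 in G151 (2 and 1) and -0.67 in G152 (1 each). Mup6 differed by 0.05, -0.47 and -0.26 in the same batches.

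Between 24 and 12 months, 0 of the 5 passed in limma, with 0.0253% of all probe sets passing. Mup21 and Mup5 were lower at an unadjusted p under 0.05, as were 6.35% of all probe sets, and all 5 members had a difference below 0, as had 56.9% of all. Mup21 averaged 8.62 ± 0.48 at 24 months and 9.11 ± 0.28 at 12 months, with a difference of -0.48 (SE 0.20, limma adjusted p 0.345). Its difference was -0.64 in batch G150 and -0.46 in G152, but 0.06 in G151, which holds 1 liver of 24 months and 2 of 12 months. Mup5 differed by -0.17 (SE 0.07, limma adjusted p 0.382), Mup6 by -0.19, and Mup3 and Mup20 by -0.08 each. The median over the members was -0.17, beside -0.02 over all probe sets.

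Switched livers were set against lifelong livers of 24 months, which asks whether the first part of life on freely eaten moderate-fat food left a difference a year into the same diet. Mup21 averaged 7.70 ± 0.39 (SD, n = 8) in switched livers and 8.62 ± 0.48 (SD, n = 7) in lifelong livers, a log2 difference of -0.93 (SE 0.19) or a 1.91-fold lower value. All 8 switched livers lay below the lifelong mean, and 7 lay below the lowest lifelong liver. The unadjusted p was 4.7e-05 in limma and the adjusted p 0.104, so Mup21 did not pass. It ranked 16th by p among the 35556 probe sets of this comparison and 13th by size of fall.

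No other member passed here either, so the limma count was 0 of 5, while 0.0197% of all probe sets passed. Lower at an unadjusted p under 0.05 were 2 members and 4.02% of all probe sets, and a difference below 0 was found in 5 members and 52% of all. Mup3 averaged 12.68 ± 0.11 in switched and 12.81 ± 0.11 in lifelong livers, with a difference of -0.15 (SE 0.05, unadjusted p 0.00355, limma adjusted p 0.379). Mup5 differed by -0.15 (SE 0.07, limma adjusted p 0.669) and Mup20 by -0.09 (SE 0.05, limma adjusted p 0.733). Mup6 averaged 11.23 ± 0.61 in switched and 11.25 ± 0.30 in lifelong livers and differed by -0.01 (SE 0.19, limma adjusted p 0.998). Without switched replicate 7 the difference of Mup6 was 0.18 (SE 0.12, limma adjusted p 0.759), with the opposite sign. The median over the members was -0.15, beside 0.00 over all probe sets.

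The lower Mup21 value of switched livers appeared in each batch, at -0.88 in G150 (6 and 4 livers), -1.42 in G151 (1 each) and -0.77 in G152 (1 and 2). Over fits that each left out 1 liver it stayed between -1.03 and -0.79, with a limma adjusted p of 0.0202 to 0.289. It passed without switched replicate 3, the highest Mup21 liver of its group (adjusted p 0.0202), and without lifelong replicate 1 (adjusted p 0.0271). Both comparisons with livers of 24 months rest on the same 7 lifelong livers, so they are not independent of each other.

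In whole liver, fewer hepatocytes and less Mup RNA in each hepatocyte cannot be told apart. The mean over 9 hepatocyte markers was 12.87 in switched livers, with single livers from 12.78 to 12.97. It was 13.07 at 6 months (13.01 to 13.13), 13.0 at 12 months (12.87 to 13.09) and 12.91 at 24 months (12.84 to 13.05) under the lifelong diet. Of the 9, 1 fell between 24 and 6 months, the tyrosine-degrading enzyme Tat (-0.42, SE 0.12, limma adjusted p 0.0355), and 0 passed between switched and lifelong livers. Of all probe sets, 2.63% fell in the first comparison and 0.0197% passed in the second. B and plasma cell markers rose in 6 of 7 genes between 24 and 6 months, when 2.1% of all probe sets rose, and their mean was 6.30 at 24 months (5.31 to 6.99) and 4.89 at 6 months (4.72 to 5.05). Their mean in switched livers was 6.16 (5.37 to 6.77). Of the Kupffer cell and macrophage markers, 1 of 11 rose between 24 and 6 months, with a mean of 9.04 at 24 months (8.30 to 9.85) and 8.64 at 6 months (8.40 to 8.95). Their mean in switched livers was 9.08 (8.35 to 10.31). The mean of 7 stellate cell and fibroblast markers was 8.18 in switched livers (7.98 to 8.41), and 7.92, 7.94 and 8.00 in lifelong livers at 6, 12 and 24 months. Of the 7, 0 passed between switched and lifelong livers, when 0.0197% of all probe sets passed. All 7 had a difference above 0 there (0.12 to 0.33, median 0.19), beside a median of 0.00 over all probe sets. The part of these cell types in the Mup values was not tested.

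Some single livers kept their place across several members, and others did not. Lifelong replicate 3 of 12 months was the highest of its group in all 5 members. Lifelong replicate 4 of 24 months was the highest in Mup21, Mup3, Mup5 and Mup20 and the second in Mup6. At 6 months lifelong replicate 3 was the highest in Mup21 and ranked 5 from the highest in Mup20 and Mup5. Mup20 and Mup21 had an r of -0.51 in that group. In the switched group the places diverged as well. Replicate 2 was the lowest in Mup21 (7.09) and Mup3 (12.55) and the highest in Mup5 (5.95) and Mup6 (11.83). Replicate 7 was the lowest in Mup6 (9.84), Mup20 (12.85) and Mup5 (5.53) but the third highest in Mup21 (7.73).

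**Figure D3:**
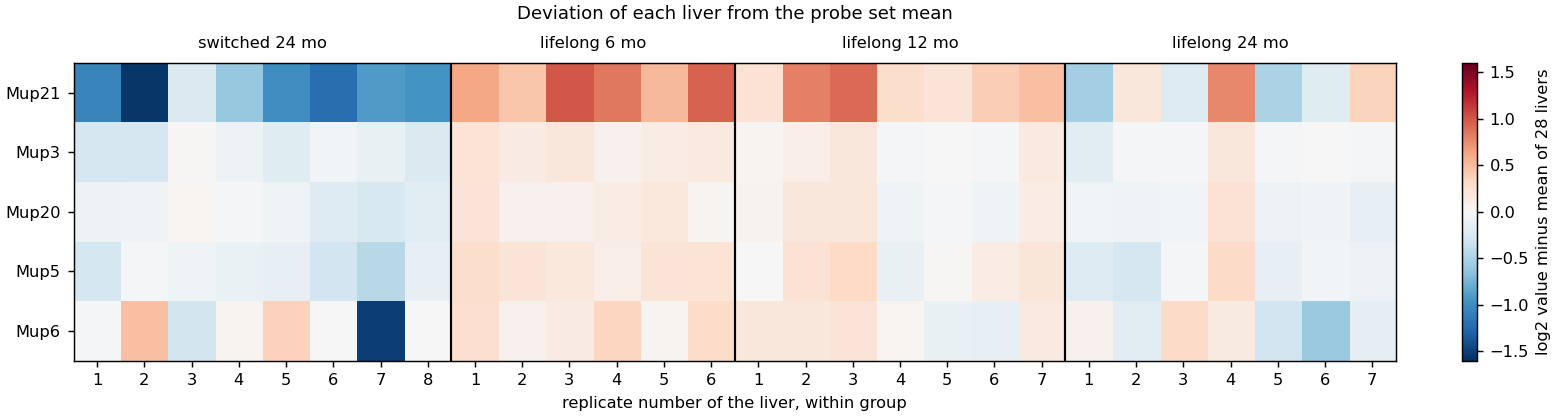
Difference of each liver from the mean of the 28 livers, in log2 units, for the 5 Mup probe sets (rows) and single livers by group and replicate number (columns). Switched livers are below the mean in Mup21 throughout, and switched replicate 7 stands out in Mup6.

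Averaged over the 5 members, the deviation from the mean of all livers was -0.30 ± 0.17 in switched livers (SD, n = 8). It was 0.27 ± 0.06 at 6 months (n = 6), 0.15 ± 0.14 at 12 months (n = 7) and -0.05 ± 0.19 at 24 months (n = 7) under the lifelong diet. Mup21, with the largest differences of the 5 in each comparison, has the largest share in this average. The spread between livers was smallest at 6 months.

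Correlations between members describe the 28 livers, which share arrays and group differences. Over all livers, Mup21 and Mup3 had a Pearson r of 0.89 (Spearman 0.89), and the r was 0.83 after group and batch means were removed (0.73 without the 2 livers farthest from the median). Mup20 and Mup5 had an r of 0.89 over all livers and 0.74 after removal, or 0.53 without the 2 livers farthest out. Mup21 and Mup5 had an r of 0.78, which was 0.47 after removal and 0.27 without the pair of livers farthest from the median. Mup6 had an r of 0.24 with Mup21 and 0.17 with Mup3 over all livers, and of -0.04 and -0.14 after removal. With Mup20 and Mup5 its r was 0.52 and 0.54 over all livers, and 0.51 and 0.55 after removal. Without the 2 livers farthest out, each r after removal was 0.28. Within single groups of 6 to 8 livers these values varied widely. Mup21 and Mup3 had an r of 0.70 in the switched group, and of 0.06, 0.77 and 0.77 in lifelong livers at 6, 12 and 24 months. Mup21 and Mup6 had an r of -0.33 in the switched group, and of 0.54, 0.59 and 0.20 at 6, 12 and 24 months. Mup3 and Mup6 had an r of -0.37 in the switched group, and of -0.05, 0.78 and 0.08 at the same ages. At 6 months Mup21 was thus closer to Mup6 than to Mup3.

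**Figure D4:**
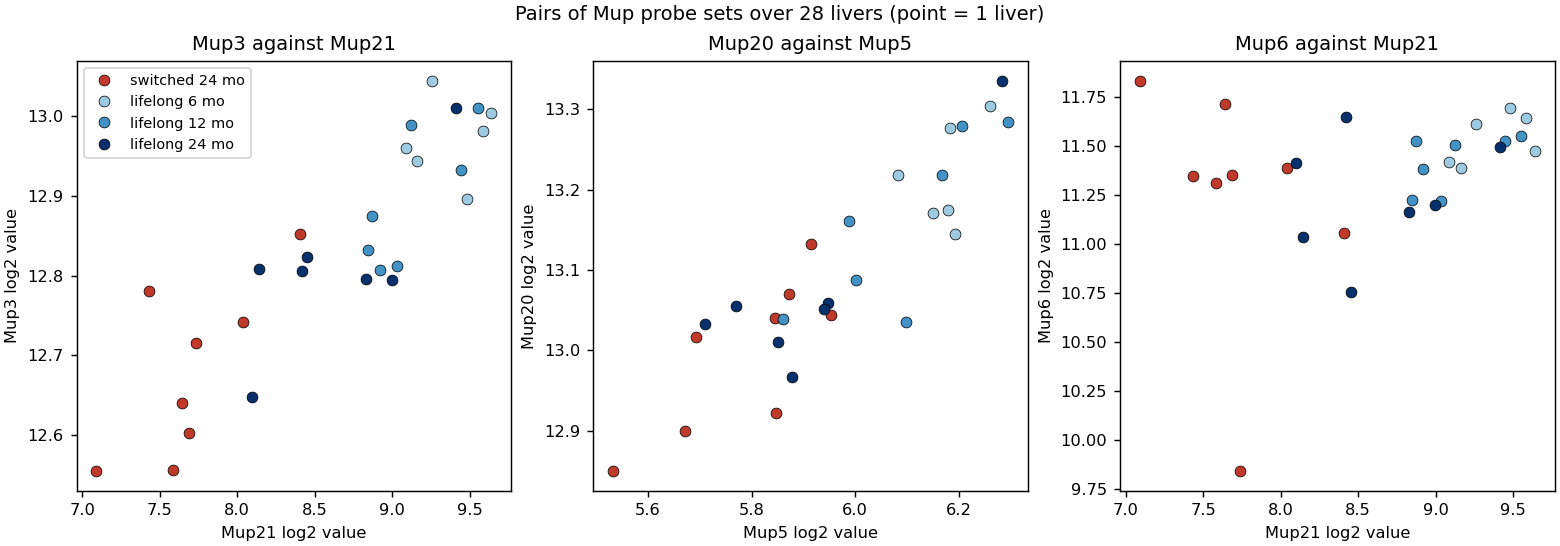
Log2 values of pairs of Mup probe sets in 28 livers, coloured by group: Mup3 against Mup21, Mup20 against Mup5, and Mup6 against Mup21. The first and the second pair rise together (r 0.89 each), and Mup6 shows little relation to Mup21 (r 0.24).

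Other sex-biased genes of mouse liver were counted beside the Mup genes. The male-biased and female-biased lists were chosen with earlier results of these data known. Their counts are a description and no independent test. Of 27 measured male-biased genes outside the family, 11 fell and 0 rose between 24 and 6 months, when 2.63% of all probe sets fell, and the median of the 27 was -0.44. Those that fell include Cyp4a12b, a fatty acid hydroxylase (-1.28, SE 0.31, limma adjusted p 0.0180), and Cyp2d9, a steroid hydroxylase (-0.43, SE 0.10, limma adjusted p 0.0122). Ugt2b38, a glucuronosyltransferase, also fell (-1.05, SE 0.12, limma adjusted p 6.6e-05). Between switched and lifelong livers, when 0.0197% of all probe sets passed, 2 of the 27 fell. They were Cyp2d9 (-0.54, SE 0.09) and Susd4, a complement inhibitor (-1.24, SE 0.21), each with a limma adjusted p of 0.0341. The median of the 27 was -0.49. Between 12 and 6 months and between 24 and 12 months 0 of the 27 passed, with medians of -0.17 and -0.26. Of all probe sets, 0.591% and 0.0253% passed there.

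Of 27 measured female-biased genes, 5 rose and 0 fell between 24 and 6 months, when 2.1% of all probe sets rose, with a median of 0.12. They were the steroid hydroxylase Cyp17a1 (2.11), the cytochromes Cyp2b9 (3.22) and Cyp2c38 (1.17), and the organic anion transporter family members Slc22a27 (2.18) and Slc22a26 (2.00). Between switched and lifelong livers, when 0.0197% of all probe sets passed, 2 of the 27 rose. They were the cytochrome Cyp2b13 (3.26, SE 0.37, limma adjusted p 0.000118) and the peroxisomal oxidase Hao2 (1.80, SE 0.27, limma adjusted p 0.0094). The median of the 27 in that comparison was 0.45. Between 12 and 6 months, when 0.591% of all probe sets passed, Cyp17a1 rose (1.25), and between 24 and 12 months 0 passed.

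Genes of growth hormone signalling and other regulators were counted too. Between 24 and 6 months 2.63% of all probe sets fell, and at most 0.591% passed in any other comparison. Of 25 measured genes of growth hormone signalling to STAT5, 1 fell between 24 and 6 months, the IGF-binding protein Igfbp2 (-0.74, SE 0.17, limma adjusted p 0.0134), and 0 passed in the other 3 comparisons. Of 16 other regulators linked to Mup expression, such as hormone receptors, 1 fell between 24 and 6 months, the leptin receptor Lepr (-1.49, SE 0.40, limma adjusted p 0.0316), and 0 passed elsewhere. A transcript level does not measure hormone pulses or STAT5 activity, and neither was measured.

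Relatives, neighbours and other secreted proteins were counted in the same way. The list of lipocalins outside Mup had 22 measured genes, among them Pgls, which is not a lipocalin. Of the 22, 2 rose between 24 and 6 months, when 2.1% of all probe sets rose. They were the iron-siderophore binder Lcn2 (2.08, SE 0.57, limma adjusted p 0.0335) and the acute phase protein Orm1 (0.23, SE 0.07, limma adjusted p 0.0474). In the other 3 comparisons 0 of the 22 passed. Of 18 abundant secreted hepatocyte proteins 0 passed in any of the 4 comparisons. Their differences between 24 and 6 months ran between -0.13 and 0.14, and those of Mup20 and Mup3 were -0.13 and -0.15. Some, such as Alb (13.67 at 6 months), read near the upper end of the arrays, where differences can be understated. The 10 measured genes nearest to the Mup cluster on chromosome 4, 5 on each side, included 0 that passed in any comparison. Of all probe sets, 4.73% passed between 24 and 6 months and at most 0.591% in any other comparison. A count of 0 in lists this short therefore says little.

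Likeness was measured as Pearson r with the mean of the 5 Mup probe sets over the 28 livers, among genes outside the family. After group and batch means were removed, the highest values were those of Nsmce4a, a subunit of the SMC5-SMC6 complex (r 0.79, and 0.65 without the 2 livers farthest from the median), and Ugt2b1, a glucuronosyltransferase (r 0.78, and 0.64). The lowest was that of App, the amyloid precursor protein (r -0.80, and -0.67). With group differences left in, Ugt2b1 (r 0.89) and Cyp2d9 (r 0.86) came first, and 5 of the 8 genes with the highest r were members of the male-biased list. With group and batch means removed, 1 of the 8 highest was. The genes compared numbered 16470, and 27 genes of the male-biased list were measured. This describes 28 livers, with no test.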

How the data were processed

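Liver RNA of 28 mice (RNA integrity number above 8.0) was hybridised to single-colour arrays with a biotin label. RMA is named in the submitters' processing notes, and the log2 expression values are those the authors deposited, with no further normalisation. The version of RMA, and whether all arrays were normalised in 1 run, are not given in the sources used here. Precision is limited by the number of arrays. The labels name separate mice as replicates.

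With limma 3.58.1 in R 4.3.3, 1 linear model was fitted to all 35556 probe sets on 28 arrays. Its terms were the 4 groups and the array-name batch, and variances were moderated by empirical Bayes. Tests were two-sided, with Benjamini-Hochberg adjustment over all probe sets of a comparison. The fit was tested on simulated data. No probe set was filtered out. A gene with several 1-gene probe sets was represented by the brightest. Promoters were aligned with Biopython 1.88, and Python 3.11.15 drew the figures.

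All members are named with values. Likeness takes the 8 highest and 8 lowest genes of each kind, of which a few are named. Members and gene lists were chosen with earlier results of these data known. Alternatives were no batch term, subsets of batches, a fit of just the groups compared, a fit without the dimmest 30 percent of probe sets, renormalisation, recentring, other moderation, array weights, a replicate block and each liver left out.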

Additional observations from a re-analysis of the deposited data

Results flagged for a closer look

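In 20 groups of values (5 members in 4 groups), 3 values, from 2 livers, stood apart from the rest of their group by Dixon's criterion, which chance meets in about 1 of 20 groups. Lifelong replicate 4 of 24 months was far above the others in Mup20, at a log2 value of 13.34 (gap over range 0.749, critical value 0.568). The same liver was far above the others in Mup5, at 6.28 (0.586, critical value 0.568). Its B and plasma cell marker mean (5.31), its Kupffer cell and macrophage marker mean (8.30) and its endothelial marker mean (8.18) were the lowest of its group of 7. So were its stellate cell and fibroblast (7.69) and bile duct cell (5.15) marker means. Its hepatocyte marker mean (13.0) was the second highest. Switched replicate 7 was far below the others in Mup6, at 9.84 (0.611, critical value 0.526). Its Kupffer cell and macrophage marker mean (10.31) was the highest of the 8 switched livers, and its hepatocyte marker mean (12.94) was the second highest. Its endothelial (9.02) and T and NK cell (5.45) marker means were also the highest. The part of these marker levels in the Mup values was not tested.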

How the results depend on the processing

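Mup probe sets called lower between 24 and 6 months, 1 in the fit reported, numbered 0 in batch G150 alone, in G151 and G152 alone and with only the groups compared. They numbered 2 without the lowest 30 percent of probe sets, with trend and robust moderation and with array weights, and 0 to 3 with each liver left out. For switched against lifelong livers the count of 0 became 0 to 1 with each liver left out and was 0 under all 11 other settings. Mup21 stayed below 0 in every comparison under all 11 settings, and between 24 and 6 months it passed in 8 of them (limma adjusted p 0.0195 to 0.371). The 3 in which it missed were the 3 with 0 calls, each of which fits fewer livers. Some differences of Mup6 and Mup20 changed sign. Between 12 and 6 months, in batch G150 alone, Mup20 gave 0.0044 and Mup6 gave 0.052. Mup6 between switched and lifelong livers gave 0.084 in G151 and G152 alone, 0.0026 with only the groups compared, 0.084 with array weights, and -0.096 to 0.18 with each liver left out. Those above 0 were 0.074, 0.045 and 0.014 without lifelong replicates 3, 4 and 1, and 0.018 and 0.18 without switched replicates 3 and 7. The cause was not tested. Counts over all probe sets under the 11 settings ran 0 to 518 (210 as reported) for 12 against 6 months, 3 to 2271 (1681) for 24 against 6, 0 to 39 (9) for 24 against 12, and 0 to 10 (7) for switched against lifelong.

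Replicate numbers did not pair the livers: residual correlations of same-numbered livers ran between -0.14 and 0.14. With a replicate block added to the batch term, 1 Mup probe set was called lower between 24 and 6 months and 0 in the other comparisons, and all probe sets called numbered 122, 1334, 0 and 2 in the order above. Probe sets naming 1 Mup gene alone could not be run as a separate setting, because no member is shared. No detection call was made, and Mup5, the dimmest member, read 5.53 to 6.29 where array medians were 5.23 to 5.31.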

Other observations

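Likeness to Mup21 alone was added after the data were seen. Over the 28 livers the genes with the highest Pearson r were the steroid hydroxylase Cyp2d9 (0.92), the carboxylesterase Ces3a (0.90), the NADPH oxidase Nox4 (0.90) and the oxysterol hydroxylase Cyp7b1 (0.89). The fatty acid transporter Cd36 (-0.90) and the transcription factor Klf6 (-0.90) had the lowest. Of the 8 highest, 5 were members of the male-biased list, but 0 of the 8 highest were once group and batch means were removed. After group and batch means were removed, the lowest was the lysosomal membrane protein Cd63 (r -0.81, and -0.69 without the 2 livers farthest from the median), and the transcription factor Sox15 was the highest (0.73, and 0.63). For Mup6, after the same removal, the water channel Aqp4 was the highest (r 0.86) and the myelin protein Pmp22 the lowest (r -0.86). Without the 2 livers farthest out these were 0.65 and -0.51.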
